A study of Mus musculus with 4 samples.

Results

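The heat shock chaperones of the cytosol and the mitochondrial matrix were followed in mouse cardiac fibroblasts with and without a hairpin against the nuclear receptor gene Nr4a3. The 10 genes were chosen by name: Hspa8, Hspa1a, Hspa1b, Dnajb1, Hsph1, Hsp90aa1, Hsp90ab1, Hspb1, Hspd1 and Hspe1. All 10 were found among the 13192 listed genes, and all 10 passed the filter on low counts.

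The cells were primary fibroblasts of wild-type (WT) heart, labelled neonatal, at day 7 of treatment. They carried a short hairpin RNA against Nr4a3 (shNr4a3, 2 libraries) or a non-targeting hairpin (shNT, 2 libraries); the titles add P3-CFs, which the labels do not explain. A short hairpin RNA is cut by the cell into a small interfering RNA that lowers the matching transcript. The labels do not say how many hairpin sequences were used, whether the hairpin entered every cell, or whether the replicates come from separate cultures. The p-values therefore cover only the spread between these libraries, which may be technical.

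Chaperones bind unfolded or partly folded proteins and keep them from clumping. In the cytosol, HSP70 proteins hold short greasy stretches of a client and release them in a cycle driven by ATP, J-domain proteins such as that of Dnajb1 start the cycle, and HSP110 proteins such as that of Hsph1 exchange its nucleotide. HSP90 acts later on nearly folded clients, among them kinases and steroid receptors, small heat shock proteins hold clients without ATP, and HSP60 with its lid HSP10 forms the folding chamber of the mitochondrion. When proteins unfold, heat shock factor 1 binds repeats of GAA and its inverse TTC in the promoters of many of these genes and raises their transcription. In the heart these proteins are best known for protecting cells from heat, ischaemia and oxidative stress.

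The 4 libraries held 34068241 to 35111013 counts. Nr4a3, the target of the hairpin, had 4 and 8 counts in the shNr4a3 libraries, against 60 and 29 in the shNT libraries, and its log2 fold change was -2.98 with an SE of 0.67 (n = 2 per group; adjusted p = 3.22e-04 by edgeR). All 10 cardiac fibroblast markers were detected, of which 5 rose (among them Postn and Pdgfra) and 5 fell (among them Col1a1, Vim and Tcf21), at a summed 10126 to 10179 normalised CPM in shNr4a3 and 14202 to 14682 in shNT (CPM, a scaling that makes counts comparable between libraries). Markers of other cell types were lower in sum and present in both groups. The 10 epicardial and mesothelial markers summed to 129 to 131 CPM in shNr4a3 and 649 to 676 in shNT, and all 10 fell. Of 10 endothelial markers 9 were listed, at 174 to 181 CPM in shNr4a3 and 345 to 361 in shNT, and 7 fell. Flt1, which did not pass, made up 118 and 112 CPM of that sum in shNr4a3 and 118 and 109 in shNT. Of 8 smooth muscle and pericyte markers 6 were listed, at 367 to 370 CPM in shNr4a3 and 629 to 711 in shNT, of which 4 fell and 1 rose. The 6 of 10 cardiomyocyte markers listed stood at 485 to 509 CPM in shNr4a3 and 1005 to 1061 in shNT (1 fell, 1 rose), with Myh7, Actc1, Myl2 and Pln not listed. Tnnt2 alone made up 478 and 504 CPM of that sum in shNr4a3 and 1057 and 1001 in shNT, and Ttn was the marker that rose. Macrophage and leukocyte markers (6 of 10 listed) stood at 99.3 to 99.97 CPM in shNr4a3 and 60.7 to 61.6 in shNT (3 fell and 1 rose of 5 tested), of which Lyz2, the one that rose, made up 90.9 and 87.8 in shNr4a3 and 40.3 and 42.2 in shNT. These shifts moved with every result below, and their part in those results was not tested. In bulk RNA, fewer cells of a type and less RNA per cell cannot be told apart.

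The chaperones moved little, and in both directions. At an adjusted p under 0.05 (edgeR), 2 of the 10 rose (Hspa1b and Hspe1), 3 fell (Hsp90ab1, Hspb1 and Hsph1) and 5 did not pass. Among all 13160 tested genes 27.6% rose and 27.9% fell, 55.5% in all, so 5 of 10 is close to the share in the whole table. The median log2 fold change of the 10 was 0.01, against 0.00 over all tested genes; the median size of change, without its sign, was 0.20, against 0.35. Only Hspa1b changed by more than 0.5 on the log2 scale, and it is among the rarest of the 10. Tested against a minimum change of 0.5 (edgeR), 0 of the 10 passed, with 1, Hspa1b, at an unadjusted p under 0.05; 16.0% of all genes passed. The authors' deposited table, whose p-values equal those of a test against a change of 0.5, calls 0 of the 10 as well, with 0 at an unadjusted p under 0.05 there, while DESeq2 without a minimum called the same 5 genes as edgeR. With library totals as the only scaling, the all-gene median lay 0.11 higher, and the split of the 10 then became 4 higher and 3 lower (4702 and 2837 of all genes). Every change below of about 0.1 or less therefore lies within the shift that the choice of scaling makes.

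**Figure D1:**
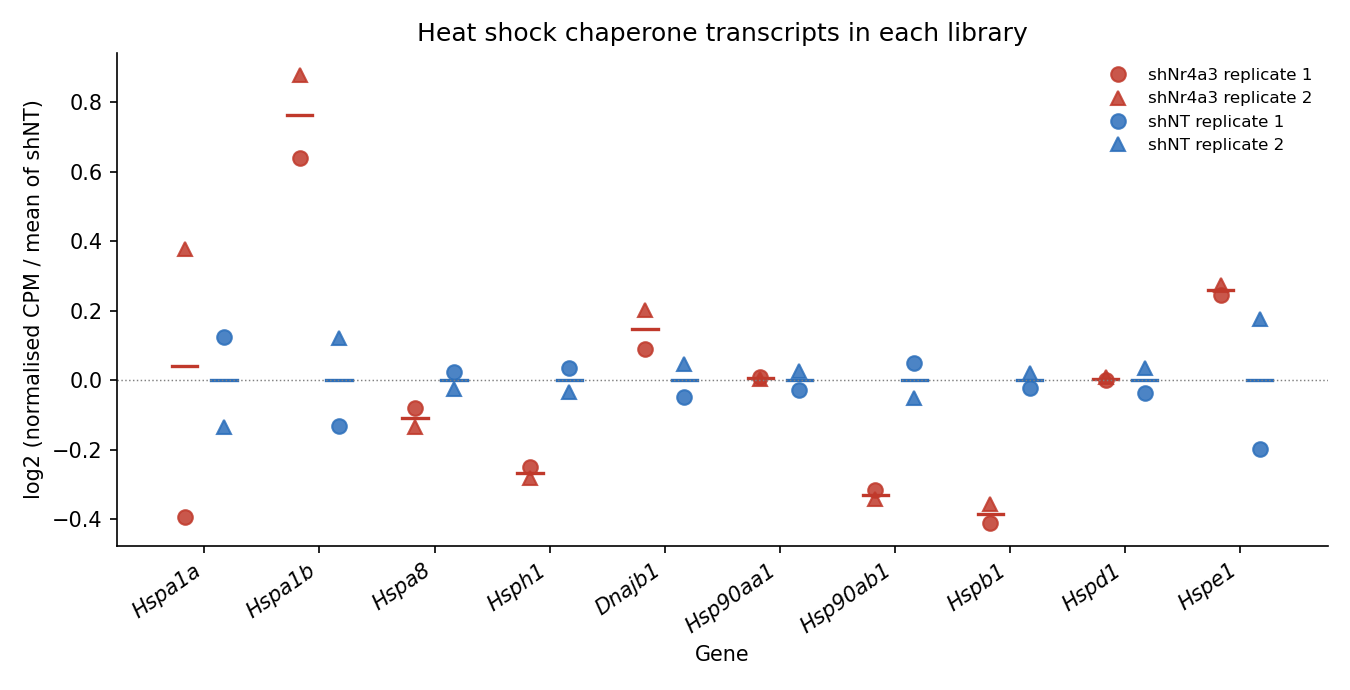
Normalised CPM of each gene in each library on a log2 scale, relative to the mean of the shNT libraries of that gene (red, shNr4a3; blue, shNT; circles, replicate 1; triangles, replicate 2; bars, group means). The red points lie above both blue points for Hspa1b, Dnajb1 and Hspe1, and below both for Hspa8, Hsph1, Hsp90ab1 and Hspb1. They lie between the blue points for Hsp90aa1 and Hspd1, and on either side of them for Hspa1a.

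In 7 of the 10 genes the shNr4a3 libraries lay on one side of both shNT libraries, 4 of them below and 3 above. Over all tested genes such separation was found in 77.2% (38.3% below and 38.9% above), so separation without a passed test is common in this table. The plot of values by library shows a tight pair of shNr4a3 libraries in most genes and a wider shNT pair in Hspe1.

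**Figure D2:**
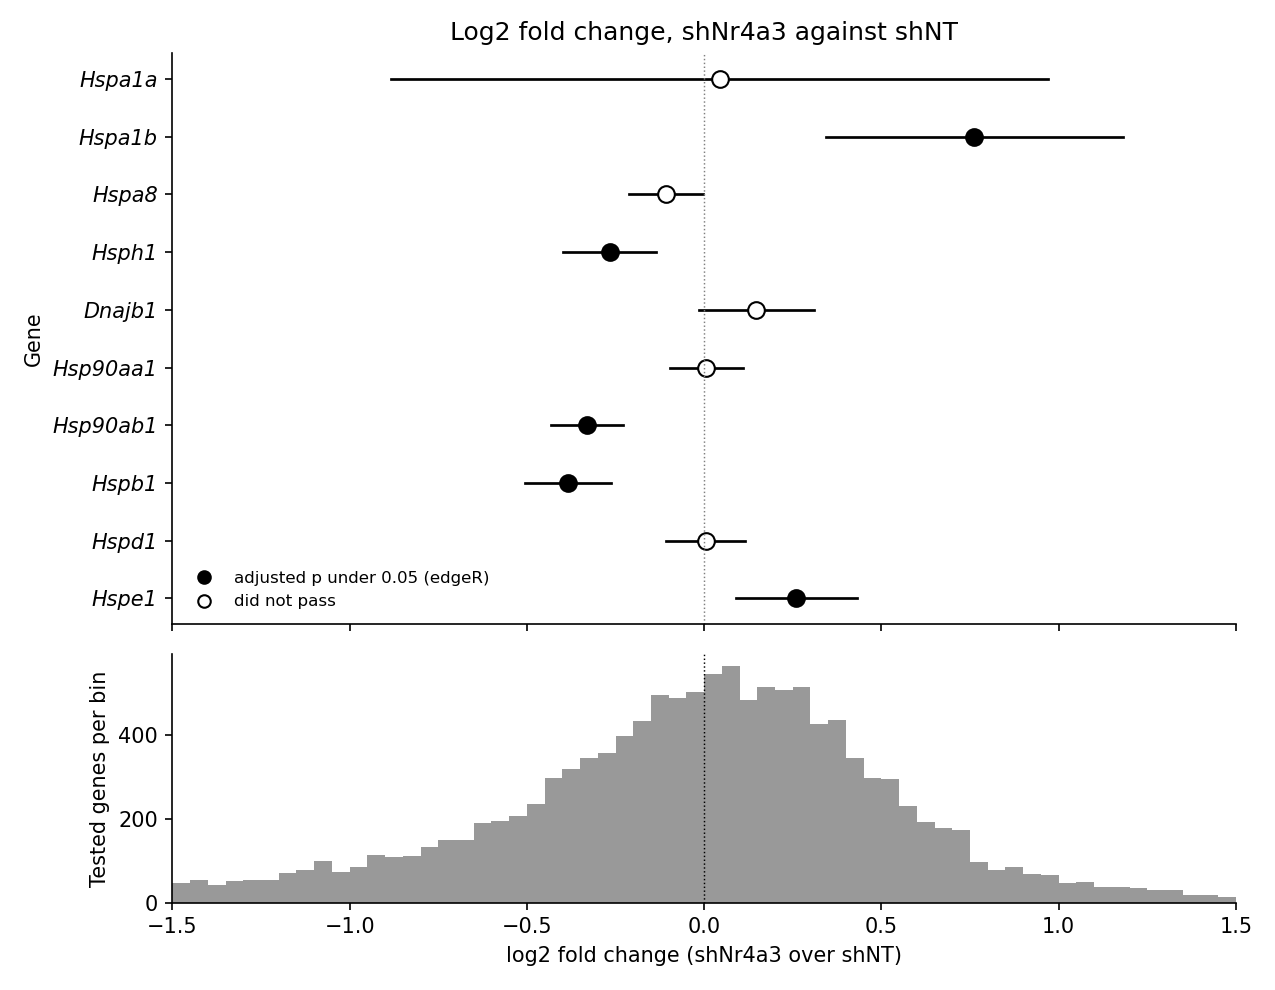
Upper panel, log2 fold change of each chaperone (shNr4a3 over shNT) with its 95% confidence interval (edgeR, n = 2 per group; filled points passed an adjusted p under 0.05). Lower panel, the same quantity for all tested genes in bins, with the 833 genes beyond 1.5 in either direction left off; apart from Hspa1b the chaperones sit within the broad middle of that distribution.

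Levels per exonic length covered a wide range among the 10, with Hsp90ab1 first and the inducible HSP70 genes last by either gene length tried. The values here divide by the merged exons of all annotated isoforms (GENCODE M21). Stretches of 150 bases that also occur in other transcripts make up 55.4% of Hspa8, 36.2% of Hsp90aa1 and none of Hsp90ab1. How reads from such stretches were counted is not given, so levels may be lowered unequally between genes. Hsp90ab1 had the highest values, at 484 and 475 normalised CPM per kilobase in shNr4a3 and 623 and 582 in shNT. Hsp90aa1 followed at 214 to 222 over the 4 libraries, then Hspa8 at 190 to 212, Hspb1 at 146 to 196, Hspd1 at 136 to 143 and Hspe1 at 63.0 to 87.4. Far lower stood Dnajb1 at 16.5 to 19.7 and Hsph1 at 14.5 to 18.0, and lowest Hspa1b at 1.36 to 2.73 and Hspa1a at 0.33 to 0.57. Among neighbours in this order, the ranges of Hspa8 and Hspb1 over the 4 libraries overlapped, as did those of Dnajb1 and Hsph1. The other neighbours did not overlap. Within each library Hspa8 was above Hspb1, while Dnajb1 was below Hsph1 in shNT replicate 1 only. The ratio of Hspa1b to Hspa8 per exonic length was 0.0118 and 0.0144 in shNr4a3, against 0.00641 and 0.00791 in shNT. Part of the order depends on the length used. By the longest coding transcript, chosen after seeing the data, Hspa8 at 341 to 381 stood above Hsp90aa1 at 256 to 266, and Hsph1 at 27.7 to 34.5 above Dnajb1 at 17.7 to 21.0. On that length Hspd1 and Hspe1 were the neighbours that overlapped, and the ratio of Hspa1b to Hspa8 was 0.00655 and 0.00802 in shNr4a3, against 0.00357 and 0.0044 in shNT.

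**Figure D3:**
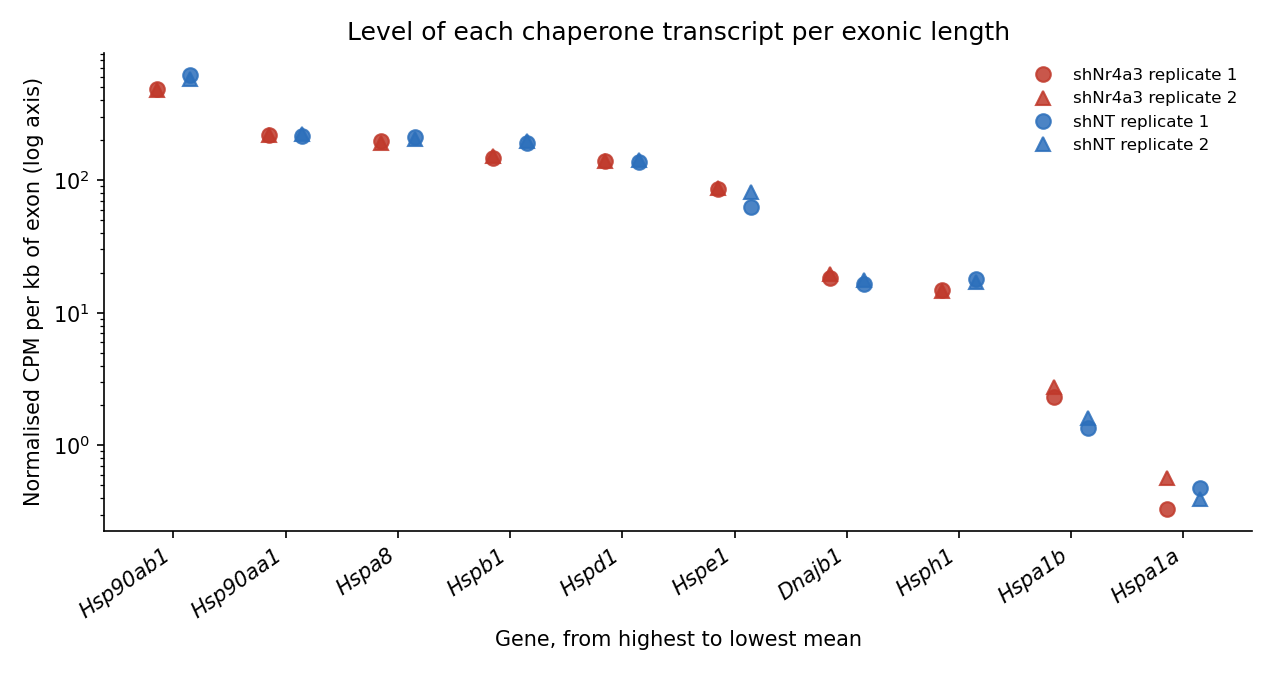
Normalised CPM per kilobase of merged exon in each library (log axis; red, shNr4a3; blue, shNT), with genes ordered by their mean over the 4 libraries. Hsp90ab1 is at 475 to 623 and Hspa1a at 0.33 to 0.57.

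Hspa8 (GRCm38 chromosome 9, 40800984 to 40810087, plus strand) encodes HSC70, the constitutive HSP70 that folds new proteins and strips clathrin from vesicles. It had 847 and 816 normalised CPM in shNr4a3, against 911 and 881 in shNT. Both shNr4a3 libraries were below both shNT libraries, by a small margin. The log2 fold change of -0.11 ± 0.05 did not pass (adjusted p = 0.0709, edgeR; 95% interval -0.21 to -0.0044). It passed in limma-voom (adjusted p = 0.0492) and with a stricter count filter (-0.12, adjusted p = 0.0436, edgeR), and it was 0.01 with library totals (adjusted p = 0.938, edgeR). Without shNT replicate 1 or replicate 2 it was -0.08 and -0.13. Without shNr4a3 replicate 1 or replicate 2 it was -0.13 and -0.08. Each of these fits leaves 1 library in a group, and takes its spread from the other pair.

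Hspa1b (chromosome 17, 34956436 to 34959238, minus strand) and Hspa1a (chromosome 17, 34969190 to 34972156, minus strand) encode the inducible HSP70 and are near-copies of each other. Hspa1b rose: it had 231 and 278 counts in shNr4a3, against 124 and 154 in shNT, or 7.08 ± 0.82 normalised CPM against 4.17 ± 0.52 (SD, n = 2 each). Both shNr4a3 libraries were above both shNT libraries, and the level was 1.70-fold higher (log2 fold change 0.76 ± 0.21; adjusted p = 0.0022, edgeR). The call was lost without shNr4a3 replicate 2 (0.64, adjusted p = 0.0533, edgeR). Hspa1a had 35 and 61 counts in shNr4a3, against 46 and 40 in shNT. The shNr4a3 libraries were the lowest and the highest of the 4, and the change of 0.04 ± 0.45 in log2 units did not pass (adjusted p = 0.944 by edgeR). Its 95% interval of -0.88 to 0.97 contains the value of Hspa1b, so these data do not show that the copies moved differently.

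Reads of these copies can be split between them: 39.7% of the 150-base windows of the Hspa1a transcript, the read length given in the labels, and 40.5% of those of Hspa1b also occur in a transcript of another gene, and the longest run that both share is 638 bases. Besides each other, both copies share windows with Hspa1l, which is listed at 7 to 18 counts. Hspa1b took 86.8% (95% exact binomial interval 82.2% to 90.7%) and 82.0% (77.5% to 85.9%) of their joint counts in shNr4a3, and 72.9% (65.6% to 79.5%) and 79.4% (73.0% to 84.8%) in shNT; the intervals cover counting error only. The share was higher in both shNr4a3 libraries, but only the intervals of shNr4a3 replicate 1 and shNT replicate 1 were separate; the other 3 pairings of a shNr4a3 with a shNT library overlapped. The difference in share was not tested. The sum of the 2 genes avoids the split. It was 266 and 339 counts in shNr4a3 and 170 and 194 in shNT, a rise of 0.62 ± 0.19 on the log2 scale or 1.54-fold (adjusted p = 0.00562, edgeR), and leaving out shNr4a3 replicate 2 ended that call (0.45, adjusted p = 0.148 by edgeR).

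The promoters of the pair are printed to show how alike the copies are outside the transcript as well. Each window runs from 250 bases before to 50 bases after the RefSeq start (GRCm38.p6), and the 2 windows differ at 4 of 300 bases. Capitals mark a match to GAANNTTC or TTCNNGAA, adjoining units of the heat shock element read on both strands; each holds 1, which begins 104 bases before the start.
Hspa1b, chr17:34959189-34959488, minus strand: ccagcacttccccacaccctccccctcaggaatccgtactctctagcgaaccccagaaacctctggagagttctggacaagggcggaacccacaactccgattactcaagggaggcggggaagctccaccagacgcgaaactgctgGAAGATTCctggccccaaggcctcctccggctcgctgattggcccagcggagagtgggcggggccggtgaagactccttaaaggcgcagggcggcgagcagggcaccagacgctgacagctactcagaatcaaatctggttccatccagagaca
Hspa1a, chr17:34972107-34972406, minus strand: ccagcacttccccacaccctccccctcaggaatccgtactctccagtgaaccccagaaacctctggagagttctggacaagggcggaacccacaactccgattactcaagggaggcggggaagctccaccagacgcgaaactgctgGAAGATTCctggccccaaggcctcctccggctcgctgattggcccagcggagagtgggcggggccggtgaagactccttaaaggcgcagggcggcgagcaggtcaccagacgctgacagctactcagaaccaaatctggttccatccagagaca

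Dnajb1 (chromosome 8, 83608193 to 83612653, plus strand), the J-domain partner that delivers clients to HSP70, had 58.3 and 63.1 normalised CPM in shNr4a3, against 52.9 and 56.6 in shNT. The shNr4a3 libraries were above both shNT libraries by a narrow gap. The log2 fold change of 0.15 ± 0.08 did not pass (adjusted p = 0.115, edgeR; 95% interval -0.01 to 0.31). It passed with library totals (0.26, adjusted p = 0.00796, edgeR). Without shNT replicate 2 it was 0.20, in a fit that takes the spread of the lone shNT library from the shNr4a3 pair.

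Hsph1 (chromosome 5, 149614287 to 149636376, minus strand), the HSP110 that recharges HSP70 with ATP and helps to dissolve aggregates, fell. It had 108 and 105 normalised CPM in shNr4a3, against 131 and 125 in shNT. The groups did not overlap, and the level was 1.20-fold lower (log2 fold change -0.27 ± 0.06; adjusted p = 7.9e-04, edgeR). The call was lost without shNr4a3 replicate 2, with nearly the same size of change (-0.25, adjusted p = 0.0514, edgeR). Hspa1b and Hsph1, which act in the same folding cycle, thus moved in opposite directions.

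Hsp90ab1 (chromosome 17, 45567775 to 45573271, minus strand), the constitutive cytosolic HSP90, fell and Hsp90aa1, the more stress-inducible HSP90 (chromosome 12, 110690605 to 110702728, minus strand), did not pass. Hsp90ab1 had 1451 and 1424 normalised CPM in shNr4a3, against 1868 and 1744 in shNT. Both shNr4a3 libraries were well below both shNT libraries, 1.26-fold on the fitted scale (log2 fold change -0.33 ± 0.05; adjusted p = 1.44e-06, edgeR). The fall passed in every alternative without a minimum fold, at -0.22 to -0.38. Hsp90aa1 had 863 and 858 normalised CPM in shNr4a3, against 840 and 873 in shNT. The shNr4a3 values lay between those of shNT, and the change was 0.01 ± 0.05 in log2 units (95% interval -0.10 to 0.11; adjusted p = 0.927 by edgeR). With library totals it passed at 0.12 (adjusted p = 0.0429, edgeR). Per exonic length there was 0.45 and 0.46 Hsp90aa1 for each Hsp90ab1 in shNr4a3, against 0.34 and 0.38 in shNT. This ratio does not depend on the scaling, but its level may depend on how reads with several matches were counted. The difference between the fold changes of these genes was not tested.

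Because Hsp90ab1 is so abundant, it had the largest part in the change in the summed level of the 10. Their sum was 3930 and 3978 normalised CPM in shNr4a3, against 4386 and 4457 in shNT. The mean sum was lower by 467 CPM in shNr4a3 (3954 against 4421), and the mean of Hsp90ab1 alone was lower by 369. The next largest differences were -64.6 for Hspa8 and -46.7 for Hspb1, while Hspe1 was 21.1 CPM higher and Hspa1b 2.91. The size of this drop depended on the scaling: with library totals, an alternative added after seeing the data, the mean sum was 4112 CPM in shNr4a3 and 4251 in shNT, a difference of -139. On that scale the difference of Hsp90ab1 was -242, more than that of the whole sum, and Hspa8 differed by 3.09.

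Hspb1 (chromosome 5, 135887919 to 135889563, plus strand) encodes the small heat shock protein HSP25, which holds unfolding clients and binds actin filaments. It fell, to 150 and 156 normalised CPM in shNr4a3, against 197 and 203 in shNT. The 2 libraries of each group were close together and the groups were far apart by comparison, 1.31-fold (log2 fold change -0.38 ± 0.06; adjusted p = 2.31e-06, edgeR). This was the largest fall of the 10, and it passed in every alternative without a minimum fold, at -0.27 to -0.41. Of all tested genes 54.0% changed by less in either direction.

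The promoters of Hspb1 and Hsph1 are shown as those of genes that fell, with the same marks. In Hspb1 the matches begin 117 and 97 bases before the start. In Hsph1 one begins 33 bases before the start and an overlapping pair begins after it; that pair forms 3 adjoining units.
Hspb1, chr5:135887669-135887968, plus strand: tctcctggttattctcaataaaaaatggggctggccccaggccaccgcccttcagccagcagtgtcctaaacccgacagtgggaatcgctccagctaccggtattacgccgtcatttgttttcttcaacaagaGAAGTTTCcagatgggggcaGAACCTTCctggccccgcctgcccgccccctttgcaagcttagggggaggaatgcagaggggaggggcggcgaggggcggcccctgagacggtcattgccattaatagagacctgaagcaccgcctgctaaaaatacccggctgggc
Hsph1, chr5:149636287-149636586, minus strand: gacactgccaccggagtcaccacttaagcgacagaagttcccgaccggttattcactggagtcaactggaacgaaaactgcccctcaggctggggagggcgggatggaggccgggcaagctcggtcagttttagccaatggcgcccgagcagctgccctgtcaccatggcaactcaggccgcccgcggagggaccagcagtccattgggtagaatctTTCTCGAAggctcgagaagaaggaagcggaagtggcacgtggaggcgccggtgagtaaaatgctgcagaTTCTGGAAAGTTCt

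Hspd1 (chromosome 1, 55077835 to 55088243, minus strand) and Hspe1 (chromosome 1, 55088132 to 55091307, plus strand) encode HSP60 and HSP10, which form the mitochondrial folding chamber together, and lie head to head. Hspd1 had 368 and 370 normalised CPM in shNr4a3, against 359 and 377 in shNT. The shNr4a3 libraries lay between the shNT libraries, and the log2 fold change was 0.00 ± 0.05 (adjusted p = 0.950, edgeR; 95% interval -0.11 to 0.12). Hspe1 had 126 and 129 normalised CPM in shNr4a3, against 92.8 and 120 in shNT. Both shNr4a3 libraries were above both shNT libraries, but the shNT pair was wide, with replicate 1 low. Hspe1 rose by 0.26 ± 0.08 on the log2 scale, 1.20-fold (adjusted p = 0.00945, edgeR). Without shNT replicate 1 it was 0.09 (adjusted p = 0.150, edgeR), without shNT replicate 2 it was 0.46, and without shNr4a3 replicate 2 it did not pass at 0.25 (adjusted p = 0.0526, edgeR); the size of this rise rests on shNT replicate 1. Per exonic length, Hspe1 was at 0.61 and 0.62 of Hspd1 in shNr4a3 and at 0.46 and 0.57 in shNT. By the longest coding transcript in place of merged exons, a length chosen after seeing the data, the ratio was 1.07 and 1.09 in shNr4a3. In shNT it was 0.81 and 0.998 by that length. The level of the ratio thus depends on the length used. A gene has the same length in every library, so the order of the libraries could not change.

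Their shared control region is printed because the Hspe1 start and 1 of the 2 RefSeq starts of Hspd1 lie within it. The other Hspd1 start lies outside, and its window shares 4 bases with that of Hspe1 and holds no match. The Hspe1 window shares 285 of its bases with the window of one of the 2 RefSeq starts of Hspd1, read on the other strand, and capitals mark an unbroken run of 18 bases made of 3 overlapping matches.
Hspe1, chr1:55087898-55088197, plus strand: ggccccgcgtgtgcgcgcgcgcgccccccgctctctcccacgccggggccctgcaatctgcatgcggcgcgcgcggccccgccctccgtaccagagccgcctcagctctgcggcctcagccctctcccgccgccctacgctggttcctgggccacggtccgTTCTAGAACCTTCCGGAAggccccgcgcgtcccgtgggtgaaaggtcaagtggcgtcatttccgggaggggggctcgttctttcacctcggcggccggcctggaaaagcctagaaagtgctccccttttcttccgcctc

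Promoter windows were found for 7 of the 10 genes; Hspa8, Hsp90aa1 and Hsp90ab1 were not in the table. A match to GAANNTTC or TTCNNGAA stood in 7 of their 10 windows, against 15.1% of all 32851 windows. The 7 windows belong to 6 genes, all but Dnajb1, and overlap in part: the 2 of Hsph1 with each other, and that of Hspe1 with 1 of Hspd1. Those of Hspa1a and Hspa1b differ at only 4 of 300 bases, so the 7 are not independent sequences. The longer form, GAANNTTC and TTCNNGAA overlapping to make 3 adjoining units, on either strand, stood in 4 of the 10 windows, those of Hspe1 and Hsph1 and 1 of Hspd1, against 0.60% of all windows. The genes with a match include 2 that rose, 2 that fell and 2 that did not pass. A match is a description of the letters, not evidence that a factor is bound.

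Other annotated copies bear on some counts. Windows of 150 bases that also occur in other transcripts made up 55.4% of Hspa8, 36.2% of Hsp90aa1, 36.6% of Hspb1, 18.6% of Hspd1 and 14.1% of Hspe1, and none of Hsp90ab1, Hsph1 or Dnajb1. The genes that share windows with Hspa8, Hsp90aa1, Hspb1, Hspd1 and Hspe1 were not among the listed genes. Hspd1 and Hspe1 share 112 exonic bases on opposite strands and Hspa1a shares 564 with Gm20481. Without a known strand setting, reads there cannot be told apart. Hspa8 shares 262 exonic bases with Snord14c, Snord14d and Snord14e on the same strand, where a strand setting would not separate them. Not given in the sources used here is how reads with several matches were treated.

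The genes that switch heat shock genes on moved both ways. Hsf1, the main heat shock factor, fell: it had 1087 and 1138 counts in shNr4a3, against 1381 and 1313 in shNT (log2 fold change -0.39 ± 0.09; adjusted p = 5.8e-04, edgeR). Hsf2, a second factor, rose by 0.28 ± 0.11 (adjusted p = 0.0339, edgeR), which DESeq2 did not call (adjusted p = 0.0865); nor did edgeR when shNT replicate 1 (0.16) or either shNr4a3 library (0.26 and 0.31) was removed. Hsbp1, whose protein binds heat shock factor 1 and damps it, had 6165 and 6372 counts in shNr4a3, against 3378 and 3910 in shNT. Its groups were far apart, and its rise was 0.67 ± 0.06 in log2 units (adjusted p = 2.22e-10 by edgeR). Hsf4, with 59 to 80 counts, did not pass (-0.33 ± 0.34; adjusted p = 0.436, edgeR).

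Relatives of the HSP70 genes rose more often than they fell. Of 8 other HSP70 and HSP110 genes 5 rose and 1 fell (median log2 fold change 0.28). Among all tested genes 27.6% rose and 27.9% fell, the shares to set beside this count and those of the lists below. Hspa4l, an HSP110, had 1781 and 1857 counts in shNr4a3 and 864 and 906 in shNT, a rise of 0.93 ± 0.09. Hspa13, a microsomal HSP70, rose by 0.71 ± 0.07 and Hspa2 by 0.48 ± 0.11, whereas Hspa12b, a distant HSP70 best known from endothelial cells, fell (-0.60 ± 0.14). Of 19 J-domain proteins and HSP70 partners 6 rose and 7 fell. Dnajc5, a J-domain protein of secretory vesicles, fell (-0.99 ± 0.06), as did Dnajb2 (-0.66 ± 0.09) and Dnajb4 (-0.45 ± 0.06), while Dnajb6, which keeps aggregation-prone proteins soluble, rose by 0.62 ± 0.06. Each gene named here passed, the highest adjusted p being 4.81e-04 (edgeR).

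Co-chaperones of HSP90 were split, and the small heat shock proteins fell or did not pass. Of 14 HSP90 co-chaperones 5 rose and 3 fell, with a median of 0.08 (all tested genes: 27.6% rose and 27.9% fell). Ppid, a peptidyl-prolyl isomerase, rose by 0.50 ± 0.07, Sugt1 by 0.42 ± 0.08 and Ttc4 by 0.38 ± 0.09, while Ahsa1, which speeds the ATP cycle of HSP90, fell (-0.39 ± 0.07). Of 5 listed small heat shock proteins besides Hspb1 3 fell and none rose. Hspb7, a small heat shock protein of heart muscle, had 13626 and 14028 counts in shNr4a3, against 24995 and 23485 in shNT, and fell (-0.92 ± 0.06). Hspb8, the partner of Bag3 in selective autophagy, fell (-0.62 ± 0.07), and so did Hspb2 (-1.35 ± 0.38), a call lost without shNr4a3 replicate 1 (-0.98, adjusted p = 0.0616, edgeR). The highest adjusted p of the genes named as changed here was 0.00305 (edgeR).

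Other folding machines of the mitochondrion and the cytosol had members that moved in both directions. Of 10 other mitochondrial chaperones and proteases 6 rose and 2 fell (all tested genes: 27.6% rose and 27.9% fell). Clpb, a disaggregase of the intermembrane space, rose by 0.73 ± 0.08 and Hscb, which serves iron-sulphur cluster assembly, by 0.66 ± 0.13. Hspa9, the mitochondrial HSP70 that passes proteins on to the HSP60 chamber, had 14034 and 13813 counts in shNr4a3, against 16136 and 16411 in shNT, and fell (-0.34 ± 0.05); the protease gene Lonp1 fell (-0.30 ± 0.07). In the TRiC chamber, the cytosolic counterpart of HSP60, and its helper prefoldin 11 of 14 subunit genes rose and 1 fell (median 0.29). Cct4 rose by 0.47 ± 0.06, Cct6a by 0.39 ± 0.06, Cct7 by 0.30 ± 0.05 and Pfdn4 by 0.71 ± 0.11. Over these named genes the highest adjusted p was 2.61e-04 (edgeR).

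Among chaperones of the endoplasmic reticulum 8 of 18 fell and 2 rose, with a median of -0.12. P4hb, protein disulphide isomerase, fell (-1.03 ± 0.05), as did Pdia6 (-0.71 ± 0.06), Calr, calreticulin (-0.41 ± 0.05), and Serpinh1, the collagen chaperone HSP47 (-0.32 ± 0.05); their highest adjusted p was 1.43e-06 (edgeR). Over all 8 lists, 37 of 92 tested genes rose (40.2%) and 26 fell (28.3%), beside 27.6% and 27.9% of all genes; no test was made of the lists, whose members share partners and regulators.

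**Figure D4:**
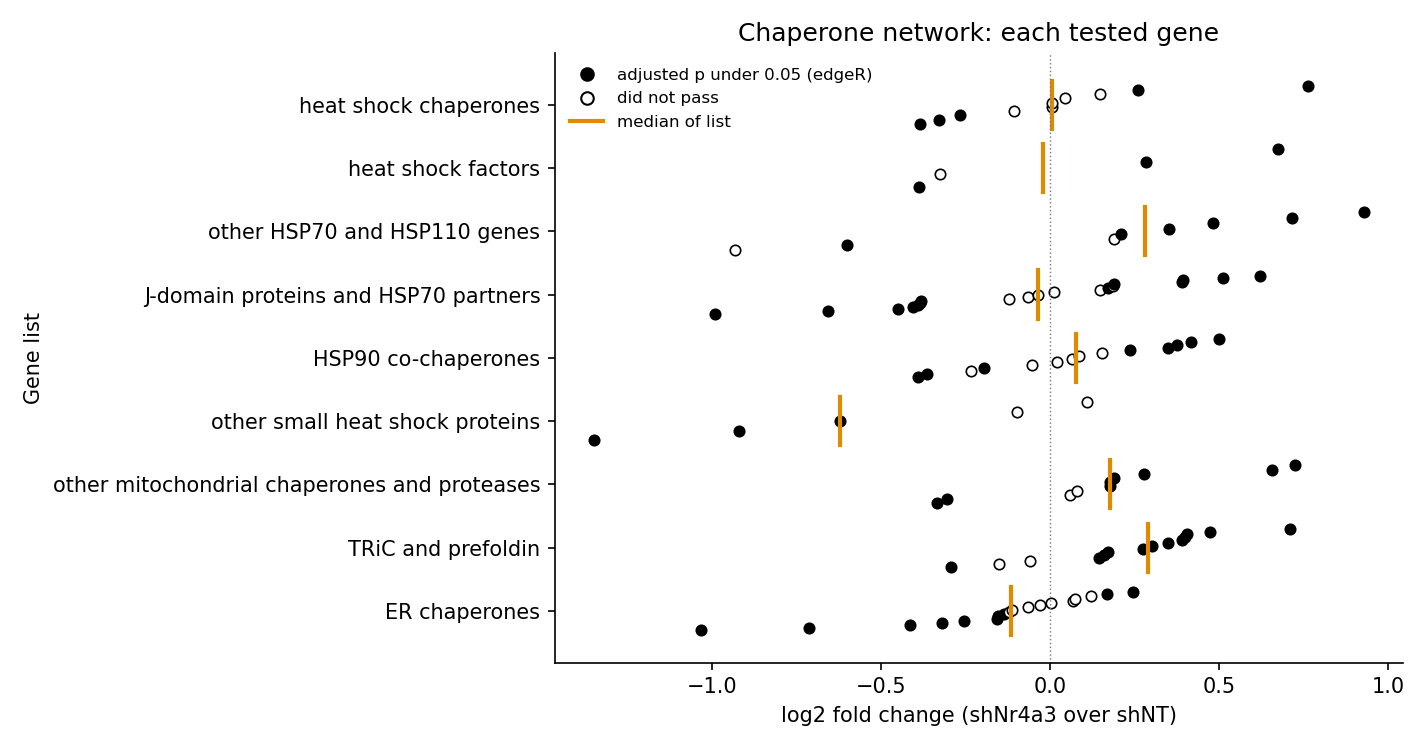
Log2 fold change (shNr4a3 over shNT) of each tested gene of the 10 heat shock chaperones and of 8 related lists; filled points passed an adjusted p under 0.05 (edgeR) and orange bars are list medians. Medians run from -0.62 in the other small heat shock proteins to 0.29 in TRiC and prefoldin, and the 10 chaperones lie around 0.01.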

How the data were processed

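RNA was counted in 4 libraries of mouse cardiac fibroblasts. Per the labels' protocols, ribosomal RNA was removed and a stranded kit made the libraries, which were read from both ends; the molecule field says polyA RNA instead. The submitters' processing notes name mm10, Trimmomatic 0.36, Subread 1.5.1, featureCounts and SAMtools. Aligner and strand setting: not given in the sources used here. Raw counts per gene make up the deposited table, per the file headers and the whole-number values. It also holds the authors' FPKM values, which were not used for levels: the gene length recovered from the deposited FPKM and the counts had a Spearman rho of -0.006 with the merged exonic length over 12705 genes, so levels were divided by exonic length from GENCODE M21 (GRCm38) instead. The authors' log2 fold change, its score (the fold divided by its standard error) and the p-value come from the authors' own deposited comparison; the authors' mean signal per gene (size-factor scaled) was left unused.

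Counts were tested in R 4.3.3 by the robust quasi-likelihood test of edgeR 4.0.16 (1 term, the group; TMM factors; filterByExpr, which removed 32 genes and left 13160), adjusted by Benjamini-Hochberg over all tested genes, threshold 0.05. The standard error is the fold change divided by the square root of F. The method was also run on simulated counts that had the same spread for every gene. That run does not show how the method performs on these libraries. The common biological coefficient of variation was 6.57%, and the chi-square per gene between replicates, 3.98 in shNr4a3 and 11.1 in shNT, exceeds sampling noise. Alternatives were DESeq2 1.42.0, limma-voom (limma 3.58.1), other scaling, other count filters, a block for replicate number, leaving out each library, and a minimum fold. The members and lists were chosen with earlier results of these data known. Named genes are Nr4a3, the 10 chaperones, the heat shock factors and, per related list, up to 4 members past the threshold with the smallest p. Promoters are from RefSeq (GRCm38.p6), matched by symbol.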

Additional observations from a re-analysis of the deposited data

How the results depend on the processing

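Against a minimum log2 fold change of 0.5, all calls thinned: 750 genes higher and 1351 lower, 0 of the 10 chaperones in either direction (1, Hspa1b, at an unadjusted p under 0.05), 6 and 5 in the related lists, and no call for the summed Hspa1a and Hspa1b, whose value stays 0.62 (adjusted p = 0.394, edgeR). With library totals, 4 chaperones were higher. Leaving out 1 library in turn gave 0 to 3 chaperones higher, 22 to 43 related genes higher and a summed Hspa1a and Hspa1b of 0.45 to 0.77; the count of 0, with 2 at an unadjusted p under 0.05, came without shNr4a3 replicate 2 (edgeR), and the counts of 22 and 23 related genes came without shNr4a3 replicate 1 and replicate 2. A sign changed only in chaperones that did not pass: Hspa1a ran from -0.39 to 0.38 with 1 library left out, Hspa8 was 0.0052 with library totals, Hsp90aa1 was -0.0053 with at least 50 counts in 2 libraries and ran from -0.0187 to 0.0368 with 1 library left out, and Hspd1 was -1.99e-04 with DESeq2 size factors in edgeR, -0.0069 with at least 50 counts in 2 libraries and ran from -0.0289 to 0.0442 with 1 library left out. The cause was not tested. Of the 31 that passed among the named related genes and Nr4a3, 29 passed in every alternative but the fold minimum; the exceptions were Hsf2 and Hspb2. Most of those related genes were named for having the smallest p of their list in the main fit to these same libraries. Their passing again was thus largely fixed in advance, and does not show how robust the lists are. Hspa1a and Nr4a3 had no value at the filter of 50 counts.

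The replicate number as a block left the same 5 chaperones called, 2 higher and 3 lower. The summed Hspa1a and Hspa1b was then 0.62 (adjusted p = 0.00419, edgeR). Deviations of same-numbered libraries correlated at -0.08 over 8947 genes. With 2 libraries per group, this correlation cannot show whether same-numbered libraries share a batch or a culture. Hspa1a, at 35 to 61 counts, is too shallow to resolve a change of the size found for Hspa1b. When a library is left out, the lone one is assumed to vary like the other pair.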

Other observations

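The gene lengths behind the deposited FPKM do not match the annotation for the chaperones. Dividing the counts by the deposited FPKM gave a whole-number length for 100% of nonzero values, within 0.01 bases, but that length was 5855 bases for Hspb1, whose merged exons span 1031, and 10415 bases for Hsp90ab1, against 2999. Hspa8 came to 7397 bases, against 4301, and Hspa1b to 1687, against 2803. Over all genes with both lengths, 18.2% of recovered lengths were within 25% of the exonic length. Deposited FPKM can be compared between libraries for 1 gene, but not between genes.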
